A study of Mus musculus with 27 samples.

Results

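The brain's extracellular matrix was followed here through 10 genes: the lecticans Bcan, Ncan, Vcan and Acan, the link proteins Hapln1 and Hapln4, the tenascins Tnc and Tnr, the receptor phosphatase Ptprz1, and Reln. They were chosen by name, as the rows of the deposited count table whose Ensembl identifier maps to these symbols, and all 10 were found among the 45195 genes of the table. The samples span adult neurogenesis in the mouse, with 2 stages from the subventricular zone (SVZ) of the lateral ventricle, neural stem cells (called NSC) and then early neuroblasts (ENB), and 2 from the olfactory bulb (OB), late neuroblasts (LNB) and then neurons. Total mRNA was measured in 3 libraries at each stage, and ribosome-bound mRNA in 2 NSC, 2 ENB, 3 LNB and 2 Neuron libraries, next to 3 OB and 3 SVZ control libraries from tissue without the HA tag.

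All mice were males aged 8 to 12 weeks on a C57BL/6 background. The TiCRY line carries Tlx-CreER, Rpl22.HA and eYFP and gave the NSC libraries, and the DiCRY line carries Dcx-CreER with the same alleles and gave the ENB and LNB libraries. The Neuron libraries carry the code Dxc4wpi, which the labels do not spell out. Tamoxifen at 200 mg/kg switched on the Cre recombinase in every line, so that cells in which the Tlx or the Dcx promoter was active, and their descendants, carry eYFP and an HA epitope on the ribosomal protein Rpl22. Total mRNA came from 200 to 500 sorted eYFP-positive cells out of 1 to 2 mice, whereas ribosome-bound mRNA was precipitated with anti-HA antibody from whole tissue, with no sorting. The Neuron ribosome-bound libraries carry a sample-type label that reads total mRNA, and they were grouped by their titles and descriptions.

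Lecticans are chondroitin sulphate proteoglycans that bind the long sugar polymer hyaluronan at one end and tenascins at the other, and link proteins clamp the lectican to hyaluronan. In the adult brain this mesh fills the space between cells and condenses into perineuronal nets around some neurons. Ptprz1 is a receptor tyrosine phosphatase of glia and their precursors, itself a chondroitin sulphate proteoglycan, that binds the growth factors pleiotrophin and midkine. Reelin, the product of Reln, is a secreted glycoprotein that mitral cells of the olfactory bulb release, and it acts through the receptors Vldlr and Lrp8 on migrating neuroblasts.

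Total counts ran between 5225929 and 15994635 in the total mRNA libraries, between 6325479 and 13316334 in the ribosome-bound libraries, and between 5960357 and 9120659 in the controls. The sorted NSC, ENB and Neuron cells carried the marker genes of their stage. The summed level of 6 stem cell markers was 2705 to 3387 CPM in NSC (counts scaled to the size of each library). That of 6 neuroblast markers was 8555 to 8802 CPM in ENB, and that of 4 mature neuron markers 4710 to 6545 CPM in Neuron libraries. In the 3 LNB total mRNA libraries the neuroblast sum was 5806, 9098 and 3747 CPM, and the stem cell sum 4358, 817.6 and 6612 CPM. Replicates of a stage differed in markers of other cell types. The summed level of 8 astrocyte markers was 6902, 1109 and 9494 CPM in the 3 LNB total mRNA libraries, against 185.1, 967.5 and 402.7 CPM in the 3 ENB libraries, and replicates 1 and 3 of LNB stood above every NSC library, which held 4957 to 6050 CPM. Results of the 10 genes that rest on LNB total mRNA are therefore given with and without LNB replicates 1 and 3. The astrocyte sum of the Neuron libraries was 2221, 5331 and 1050 CPM, and that of 6 oligodendrocyte markers was 1930, 5907 and 8394 CPM in Neuron and 287.7, 1053 and 2822 CPM in NSC total mRNA. Among the immunoprecipitates, the sum of 6 striatal neuron markers was 3676 to 3725 CPM in ENB, against 3740 to 4223 CPM in the SVZ controls. Nothing in the labels says that replicates came from separate litters or days, and p-values measure the spread between these samples.

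The proximal promoters of the 3 abundant lecticans are shown because these genes moved apart from each other between NSC and ENB. The windows run 250 bases upstream to 50 bases downstream of an annotated start, 5′ to 3′ on the gene's strand, from RefSeq on GRCm38.p6. The Bcan and Vcan windows lie inside the gene bounds given below, so the start used for them is not the outermost one. Capitals mark matches on either strand to 4 motifs that were searched: a SOX core (ACAANG), a homeodomain core (TAATTA), an NFI half-site (TTGGC) and a proneural E-box (CAGNTG).
Bcan, chr3:88000307-88000606, minus strand: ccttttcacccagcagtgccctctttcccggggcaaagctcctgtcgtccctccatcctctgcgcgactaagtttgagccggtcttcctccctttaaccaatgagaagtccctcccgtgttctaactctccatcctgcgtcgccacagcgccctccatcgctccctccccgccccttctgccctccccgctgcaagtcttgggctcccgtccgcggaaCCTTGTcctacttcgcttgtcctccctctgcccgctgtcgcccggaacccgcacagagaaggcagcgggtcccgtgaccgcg
Ncan, chr8:70120795-70121094, minus strand: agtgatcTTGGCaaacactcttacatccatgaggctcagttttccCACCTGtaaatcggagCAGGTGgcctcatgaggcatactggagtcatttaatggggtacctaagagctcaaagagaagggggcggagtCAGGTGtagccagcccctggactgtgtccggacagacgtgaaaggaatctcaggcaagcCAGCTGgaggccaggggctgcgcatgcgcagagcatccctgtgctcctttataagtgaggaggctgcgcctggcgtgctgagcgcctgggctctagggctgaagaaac
Vcan, chr13:89742463-89742762, minus strand: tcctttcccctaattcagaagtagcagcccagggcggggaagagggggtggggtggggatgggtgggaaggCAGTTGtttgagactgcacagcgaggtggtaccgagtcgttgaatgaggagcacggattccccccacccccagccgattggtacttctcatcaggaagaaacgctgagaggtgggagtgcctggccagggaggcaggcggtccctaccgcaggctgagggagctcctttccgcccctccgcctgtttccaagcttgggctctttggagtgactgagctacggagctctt
The Bcan window holds 1 SOX core, the Ncan window 4 E-boxes and 1 NFI half-site, and the Vcan window 1 E-box, with no overlap between motifs. Of the 32851 promoter windows in the table, 41.2% hold the SOX core, 51.4% the E-box, 46.7% the NFI half-site and 5.29% the homeodomain core. Among the 9 genes of the group with a window, 3 hold the SOX core, 4 the E-box, 3 the NFI half-site and 1 the homeodomain core, and Hapln4 has no window in the table. The Bcan window has 24 CpG dinucleotides and a GC content of 64.0%, the Ncan window 9 and 56.7%, and the Vcan window 12 and 61.0%.

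In TPM, the unit scaled for transcript length and depth that the authors deposited, Bcan led the group in NSC total mRNA at 468.4 ± 39.9 (SD, n = 3). Ptprz1 followed at 117.5 ± 24.7 and Ncan at 75.4 ± 8.76, and none of these 3 overlapped its neighbour in the order. Vcan at 11.8 ± 3.42 TPM, Hapln1 at 5.73 ± 3.07, Hapln4 at 4.28 ± 3.81 and Tnc at 4.03 ± 1.66 overlapped one another down the order, and Tnr, Reln and Acan were lower still. In ENB the top 4 were Ncan at 134.8 ± 10.9, Bcan at 107.7 ± 25.95, Vcan at 78.2 ± 12.6 and Ptprz1 at 67.7 ± 19.5 TPM, each overlapping the next. In LNB total mRNA the same 4 genes led, from Bcan at 685.6 ± 472.5 to Vcan at 79.8 ± 27.3 TPM, and their ranges overlapped. In Neuron libraries Bcan led at 327.8 ± 74.6 TPM, with no overlap with the next gene. Ptprz1 at 113.4 ± 27.5, Reln at 112.7 ± 11.7, Ncan at 96.7 ± 29.1 and Tnr at 56.0 ± 33.9 TPM followed, and in this run of 4 each overlapped the next. In ribosome-bound mRNA of neurons Reln led at 95.7 ± 23.6 TPM (SD, n = 2), above Bcan at 40.4 ± 7.74.

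The mix of lecticans differed between the stages. Bcan made up 84.2% ± 1.78 of the summed TPM of the 4 lecticans in NSC, 33.4% ± 5.49 in ENB, 65.2% ± 22.6 in LNB and 74.6% ± 3.35 in Neuron total mRNA (SD, n = 3 each). Vcan made up 2.11% ± 0.536, 24.4% ± 3.55, 12.2% ± 11.3 and 3.30% ± 3.70 in the same order, and Ncan 13.7% ± 2.31, 42.1% ± 2.05, 22.6% ± 11.3 and 21.8% ± 1.79. The share of Bcan in single LNB libraries ran between 39.5% and 82.0%, a span that touches the highest ENB value of 39.5%. In ribosome-bound mRNA the Bcan share was 86.6% in NSC, 56.9% in ENB, 42.7% in LNB and 49.9% in Neuron, and the Vcan share 1.32%, 4.36%, 4.41% and 0.834%. These shares were not tested.

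**Figure D1:**
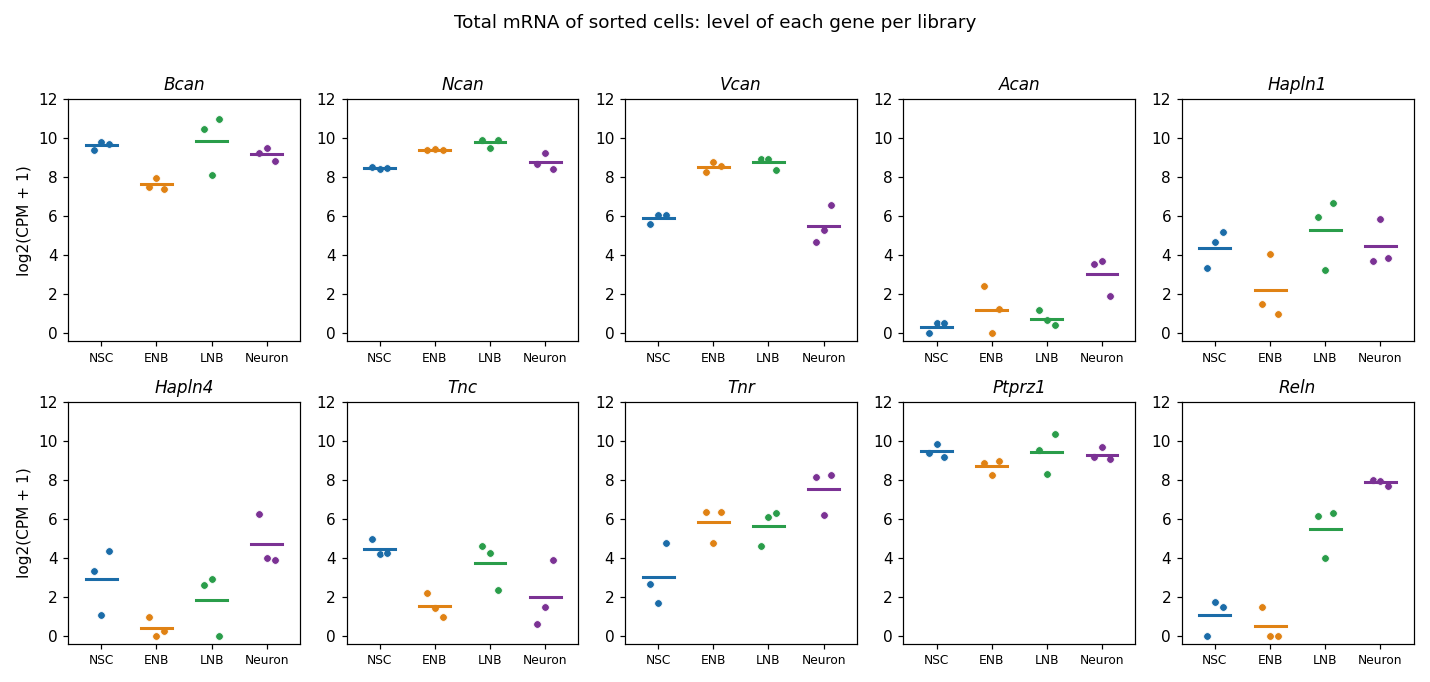
Level of each of the 10 genes in total mRNA of sorted cells, as log2(CPM + 1) on the vertical axis, for NSC, ENB, LNB and Neuron. Points are libraries (n = 3 a stage) and bars are means. Bcan and Vcan move in opposite directions between NSC and ENB, Reln is near 0 in NSC and ENB, and the 3 LNB libraries are widely spread for Bcan, Hapln1 and Ptprz1.

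Each step of the lineage was tested with edgeR over all genes, 17592 in total mRNA and 19066 in ribosome-bound mRNA, and a gene was called at an adjusted p under 0.05. All 10 genes passed the filter on low counts in each fit. In total mRNA, 3 of the 10 were called between ENB and NSC, 2 higher and 1 lower, beside 10.1% of all tested genes, 4.95% higher and 5.12% lower. Between LNB and ENB 2 were called, both higher, beside 3.77% of all genes, 2.8% higher and 0.966% lower. Between Neuron and LNB 2 were called, both lower, beside 14.7% of all genes, 5.33% higher and 9.34% lower. The median log2 fold change of the 10 genes was -0.95, 1.82 and -0.73 at these 3 steps, beside -0.01, 0.05 and -0.18 over all genes. In ribosome-bound mRNA 3 genes were called between ENB and NSC, 2 higher and 1 lower, beside 8.28% of all genes, 3.44% higher and 4.85% lower. Between LNB and ENB 1 was called higher, beside 12.9% of all genes, 6.81% higher and 6.05% lower. Between Neuron and LNB 4 were called, all lower, beside 4.13% of all genes, 0.378% higher and 3.75% lower. The medians there were 0.08, -0.11 and -0.62, beside 0.02, 0.08 and -0.15.

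**Figure D2:**
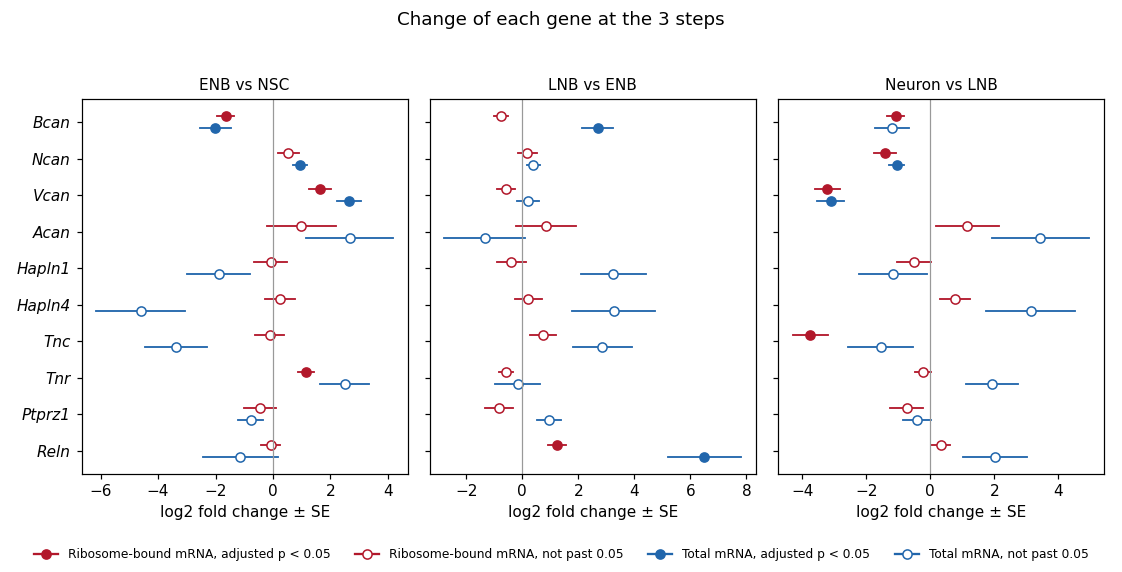
Log2 fold change with its standard error on the horizontal axis for each gene, at the steps ENB against NSC, LNB against ENB and Neuron against LNB. Red is ribosome-bound mRNA and blue total mRNA, and filled points have an adjusted p under 0.05. Vcan is filled in both kinds of library at the first and the last step, and Bcan lies on opposite sides of 0 at the middle step.

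Bcan encodes brevican, the lectican of mature brain matrix, made by astrocytes among other cells (ENSMUSG00000004892, chromosome 3, 87987531 to 88002175, minus strand, GRCm38.p6). It fell in ENB to 182.3, 246.5 and 170.5 CPM, against 680.4, 899.8 and 841 CPM in NSC. No ENB library reached the lowest NSC library. The log2 fold change was -2.01 ± 0.54 (SE; edgeR adjusted p = 0.0382), and within each second sequencing index the difference in log2(CPM + 1) was -2.35 and -1.61. In bulk samples, fewer cells that make a transcript and less of it per cell cannot be told apart. The astrocyte marker sum moved in the same direction, at 185.1 to 967.5 CPM in ENB against 4957 to 6050 CPM in NSC, with 4 of 8 markers called lower, and its part in the Bcan result was not tested. Without any 1 of the 6 libraries the log2 fold change stayed between -2.25 and -1.90 and its adjusted p lay between 0.0577 and 0.128.

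In LNB Bcan was at 1431, 280.8 and 2046 CPM, against 182.3, 246.5 and 170.5 CPM in ENB. All 3 LNB libraries were above all ENB libraries, but replicate 2 only by a small margin. The fitted log2 fold change was 2.68 ± 0.56 (adjusted p = 0.0279). Leaving out LNB replicates 1 and 3 gave 0.45 ± 0.31 (adjusted p = 1), and leaving out replicate 2 in place of them gave 3.09 ± 0.27 (adjusted p = 0.00026). The call was also lost without any other single library of the 6, at 2.09 to 2.87 and adjusted p of 0.0723 to 0.116. Within libraries that share a second sequencing index, the difference in log2(CPM + 1) was 0.67 for 1 LNB against 2 ENB libraries and 2.79 for 2 LNB against 1 ENB library, beside 2.24 over all. The astrocyte marker sums of LNB replicates 1, 2 and 3 were 6902, 1109 and 9494 CPM, in the same order as Bcan, with 6 of 8 markers called higher than in ENB. Sums of stem cell markers (4358, 817.6 and 6612 CPM) and of oligodendrocyte precursor markers (522.6, 241.2 and 1432 CPM) ran in the same order. So did those of oligodendrocyte, ensheathing cell, mural, endothelial, ependymal and microglia markers. Those of neuroblast (5806, 9098 and 3747 CPM), mature neuron, glutamatergic neuron and striatal neuron markers did not. The part of any of these cell types in the result was not tested.

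In Neuron libraries Bcan was at 595.3, 734.5 and 452.5 CPM, inside the span of LNB. Against LNB the log2 fold change was -1.19 ± 0.53 (adjusted p = 0.155). Its sign depended on the LNB libraries: without LNB replicates 1 and 3 it was 1.11 ± 0.34 (adjusted p = 0.0793), and without LNB replicate 2 it was -1.52 ± 0.26 (adjusted p = 0.00475). Against the only LNB library with the same second index, the difference in log2(CPM + 1) was 1.05, the opposite sign to -0.68 over all.

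Ribosome-bound Bcan was 297.1 and 182.9 CPM in ENB, against 666.8 and 818.8 CPM in NSC, a log2 fold change of -1.65 ± 0.28 (adjusted p = 0.00447). This call was kept in each of the 10 alternatives run for it. In LNB it was 157.3, 139.7 and 114.3 CPM, below both ENB libraries, with a log2 fold change of -0.77 ± 0.25 (edgeR adjusted p = 0.0527). DESeq2 called this step at -0.92 (adjusted p = 0.00339). So did edgeR with another scaling, no filter on low counts or the second index as a term (adjusted p of 0.0221 to 0.0411). In neurons ribosome-bound Bcan was 72.1 and 58.0 CPM, below all LNB libraries, and the log2 fold change of -1.08 ± 0.26 passed the test (adjusted p = 0.029). That call was lost without LNB replicate 1, LNB replicate 2 or Neuron replicate 2, at -1.06 to -0.94 and adjusted p up to 0.227, and with the second index as a term (-0.62 ± 0.34, adjusted p = 0.316).

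**Figure D3:**
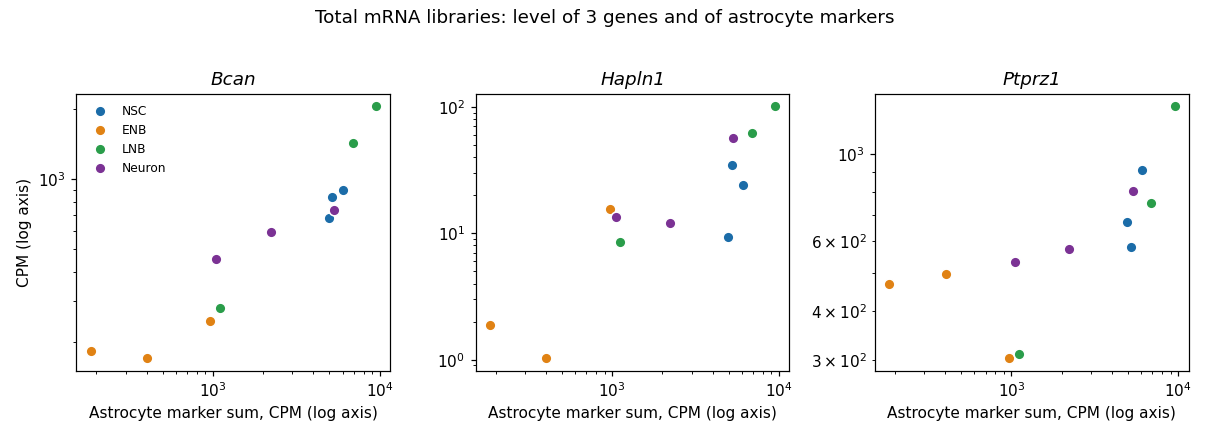
CPM of Bcan, Hapln1 and Ptprz1 (vertical, log axis) against the summed CPM of 8 astrocyte markers (horizontal, log axis) in the 12 total mRNA libraries, coloured by stage. The highest Bcan level, 2046 CPM, is in the LNB library with the highest marker sum, 9494 CPM, and the LNB library at 1109 CPM lies near the ENB library at 967.5 CPM for all 3 genes.

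Vcan encodes versican, a lectican of developing brain and of migratory routes (ENSMUSG00000021614, chromosome 13, 89655309 to 89743027, minus strand). It rose in ENB to 307.7, 438.4 and 384.5 CPM, against 47.3, 66.4 and 66.9 CPM in NSC. The groups were far apart, and the log2 fold change was 2.65 ± 0.42 (adjusted p = 0.00404). It stayed between 2.38 and 2.75 in the 12 alternatives, all past the threshold. LNB held 491.7, 496.4 and 332.8 CPM, overlapping ENB, and without LNB replicates 1 and 3 the log2 fold change of LNB against ENB was 0.36 ± 0.57 (adjusted p = 1). In Neuron libraries Vcan fell to 24.8, 38.4 and 94.1 CPM, a log2 fold change of -3.12 ± 0.43 against LNB (adjusted p = 0.000827), and -3.21 ± 0.53 without LNB replicates 1 and 3 (adjusted p = 0.00596). Within 1 second index the differences in log2(CPM + 1) were 2.35 and 2.94 at the first of these steps and -3.44 at the last. The sum of 8 oligodendrocyte precursor markers also moved between ENB, at 381.6 to 768.2 CPM, and NSC, at 30.9 to 184.7 CPM, with 3 of 8 markers called higher, and in Neuron libraries, where Vcan is low, it was 820.9 to 1679 CPM. Its part in the Vcan results was not tested.

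Ribosome-bound Vcan was 71.8 and 80.5 CPM in ENB, against 31.9 and 17.0 CPM in NSC, a log2 fold change of 1.64 ± 0.38 (adjusted p = 0.0174). The call was lost without NSC replicate 2, ENB replicate 1 or ENB replicate 2, at 1.28 to 1.73 and adjusted p up to 0.136. The SVZ controls held 20.8, 44.4 and 41.9 CPM. Against them neither NSC, at -0.60 ± 0.35 (adjusted p = 0.249), nor ENB, at 1.04 ± 0.34 (adjusted p = 0.16), was called with edgeR. In neurons ribosome-bound Vcan was 6.58 and 4.13 CPM, against 53.6, 42.9 and 52.8 CPM in LNB, a fall of 3.22 ± 0.40 on the log2 scale (adjusted p = 0.000526). This call and its total mRNA counterpart, at -3.12, held in every alternative run. 

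Ncan encodes neurocan, a lectican made by neurons and glia (ENSMUSG00000002341, chromosome 8, 70093085 to 70120863, minus strand). Its levels were tight in the early stages, at 675.8, 687.7 and 675.3 CPM in ENB against 371.4, 347.5 and 353.2 CPM in NSC. The log2 fold change of 0.94 ± 0.23 passed the test (adjusted p = 0.0256), but not once any 1 of the 6 libraries was left out (0.83 to 0.95, adjusted p of 0.0708 to 0.119). LNB held 973.5, 726.7 and 965.5 CPM, above each ENB library but with no call, and at 0.05 ± 0.29 on the log2 scale without LNB replicates 1 and 3 (adjusted p = 1). In Neuron libraries it fell to 409.8, 606.8 and 342.9 CPM, a log2 fold change of -1.05 ± 0.23 against LNB (adjusted p = 0.011). Without LNB replicates 1 and 3 the value was -0.65 ± 0.28 (adjusted p = 0.203). Ribosome-bound Ncan was 190.6 and 167.6 CPM in neurons, against 486.7, 376.9 and 566.3 CPM in LNB, a fall of 1.42 ± 0.35 (adjusted p = 0.0319). That call was lost without LNB replicate 1, LNB replicate 3 or either Neuron library, at -1.53 to -1.27 and adjusted p up to 0.204.

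Acan encodes aggrecan, the main proteoglycan of perineuronal nets (ENSMUSG00000030607, chromosome 7, 79053226 to 79115099, plus strand). It had the lowest TPM of the lecticans at every stage of total mRNA. It was 10.7, 12.0 and 2.82 CPM in Neuron, against 1.295, 0.583 and 0.331 CPM in LNB libraries. Every Neuron library was above every LNB library, and DESeq2 called the step at 3.63 (adjusted p = 0.0447). With edgeR the log2 fold change of 3.44 ± 1.53 was not past the threshold (adjusted p = 0.153). It was 3.87 ± 2.60 without LNB replicates 1 and 3 (adjusted p = 0.424). The NSC libraries held 0, 0.439 and 0.446 CPM, which are 0, 6 and 4 reads. In the tissue controls it was 8.47, 9.84 and 14.4 CPM in OB, against 0, 0.600 and 0.691 CPM in SVZ, a log2 fold change of 4.48 ± 1.09 (adjusted p = 0.0118). The SVZ values rest on 0, 4 and 5 reads, and with the authors' expected counts the fold change was 3.31 ± 1.22 (adjusted p = 0.108).

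Hapln1 stabilises the hyaluronan-lectican bond in cartilage and in perineuronal nets (ENSMUSG00000021613, chromosome 13, 89540529 to 89611832, plus strand). It was 61.6, 8.60 and 101 CPM in LNB, against 1.88, 15.6 and 1.03 CPM in ENB. The groups overlapped, with a log2 fold change of 3.25 ± 1.15 (adjusted p = 0.146), and 0.46 ± 1.37 without LNB replicates 1 and 3. With all libraries DESeq2 called this step at 3.21 (adjusted p = 0.0199). The high libraries were again LNB replicates 1 and 3. Neuron libraries, at 12.0, 56.8 and 13.3 CPM, had a log2 fold change of -1.17 against LNB and of 1.70 ± 1.54 without those libraries (adjusted p = 0.555), the opposite sign. Ribosome-bound Hapln1 lay within a narrower span, at 15.9 and 15.7 CPM in NSC, 12.5 and 17.7 in ENB, 10.6, 6.96 and 15.9 in LNB and 6.82 and 9.11 in Neuron libraries, and no step was called.

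Hapln4, a link protein of brain perineuronal nets (ENSMUSG00000007594, chromosome 8, 70083529 to 70090862), was 76.2, 15.1 and 14.1 CPM in Neuron, against 5.18, 6.48 and 0 CPM in LNB. The groups did not overlap, and the log2 fold change was 3.13 ± 1.39 (adjusted p = 0.153), or 2.45 ± 1.78 without LNB replicates 1 and 3. With all libraries DESeq2 called the step at 3.32 (adjusted p = 0.0499). In ENB it was 0.940, 0 and 0.192 CPM, against 8.94, 1.10 and 19.3 CPM in NSC, a log2 fold change of -4.60 ± 1.55 (adjusted p = 0.0788). DESeq2 called this step at -4.74 (adjusted p = 0.00484). Ribosome-bound Hapln4 lay between 8.71 and 41.4 CPM in all stages and was called at none.

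Tnc encodes tenascin-C, a hexameric glycoprotein of developing brain that is known in the stem cell niche of the SVZ (ENSMUSG00000028364, chromosome 4, 63959785 to 64047015, minus strand). Ribosome-bound Tnc fell in neurons to 1.95 and 2.36 CPM, against 27.7, 26.1 and 33.4 CPM in LNB. The log2 fold change of -3.75 ± 0.55 (adjusted p = 0.00154) held in all 11 alternatives. In total mRNA the stages were 30.0, 17.2 and 18.0 CPM in NSC, 3.59, 1.68 and 0.962 in ENB, 23.6, 18.3 and 4.14 in LNB, and 0.546, 1.77 and 13.9 in Neuron libraries. ENB lay below NSC in every library, with a log2 fold change of -3.38 ± 1.08 (adjusted p = 0.0665), which DESeq2 called at -3.44 (adjusted p = 0.00474). The log2 fold changes of Tnc were 2.86 ± 1.06 for LNB against ENB and -1.55 ± 1.01 for Neuron against LNB, and edgeR called neither. DESeq2 called the first of them at 2.87 (adjusted p = 0.0364). With LNB replicates 1 and 3 left out, the edgeR values were 3.08 ± 1.25 and -1.73 ± 1.27. Ribosome-bound Tnc showed no such gap between ENB, at 17.3 and 18.1 CPM, and NSC, at 20.7 and 17.6 CPM. The difference between the 2 kinds of library at this step was not called.

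Tnr encodes tenascin-R, the neural tenascin that cross-links lecticans, known from oligodendrocytes and some neurons (ENSMUSG00000015829, chromosome 1, 159523729 to 159931729, plus strand). In total mRNA it was 5.26, 2.27 and 26.5 CPM in NSC, 80.4, 25.8 and 80.7 in ENB, 23.6, 66.5 and 76.6 in LNB and 285.3, 72.0 and 301.2 in Neuron libraries. Log2 fold changes of 2.49 ± 0.85 for ENB against NSC (adjusted p = 0.083) and of 1.92 ± 0.83 for Neuron against LNB (adjusted p = 0.139) were not past the threshold, and 1 library of each of NSC, ENB, LNB and Neuron stood well apart from its other two. DESeq2 called both, at 2.41 (adjusted p = 0.0158) and 2.08 (adjusted p = 0.0382). Without LNB replicates 1 and 3 the log2 fold change of Neuron against LNB was 1.75 ± 1.27 (adjusted p = 0.458), and that of LNB against ENB 0.05 ± 1.14, beside -0.17 with them. The oligodendrocyte precursor marker sum was 768.2, 381.6 and 734.7 CPM in ENB, against 30.9, 63.9 and 184.7 CPM in NSC. Its lowest ENB and highest NSC libraries were also those of Tnr. In LNB this sum was 522.6, 241.2 and 1432 CPM, and its lowest library was not that of Tnr. In Neuron libraries it was 871.9, 820.9 and 1679 CPM, in the same order as Tnr. Ribosome-bound Tnr rose in ENB to 68.2 and 64.4 CPM, against 38.8 and 21.3 CPM in NSC, by 1.14 ± 0.28 on the log2 scale (adjusted p = 0.022). The call was lost without NSC replicate 2, ENB replicate 1 or ENB replicate 2, at 0.80 to 1.17 and adjusted p up to 0.173, and both ENB values lay inside the range of the SVZ controls, which held 62.8, 69.9 and 61.1 CPM. In the same libraries the oligodendrocyte marker sum was 20150 and 19540 CPM in ENB, against 8536 and 7671 CPM in NSC, with 3 of 6 markers called higher, and the precursor sum was 557.3 and 488.5 CPM in ENB, against 233.7 and 241.2 CPM in NSC, with 2 of 8 called higher. The part of either cell type in the Tnr results was not tested.

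Ptprz1 (ENSMUSG00000068748, chromosome 6, 22875315 to 23052916, plus strand) was high at every stage of total mRNA and no step was called. It was 673.5, 910.1 and 580.1 CPM in NSC, 468.5, 303.0 and 494.8 in ENB, 750.5, 311.4 and 1321 in LNB and 574.7, 807.2 and 531.2 in Neuron libraries. NSC and ENB did not overlap, while LNB spanned both. The log2 fold change of LNB against ENB was 0.95 ± 0.44 (adjusted p = 0.279). Its sign depended on the LNB libraries, at -0.48 ± 0.37 without LNB replicates 1 and 3 (adjusted p = 1), 0.31 ± 0.38 without replicate 3 (adjusted p = 0.879) and 1.26 ± 0.31 without replicate 2 (adjusted p = 0.0292). Neuron against LNB was -0.42, and 1.06 ± 0.38 without LNB replicates 1 and 3 (adjusted p = 0.133). Ribosome-bound Ptprz1 was 126.1 and 144.0 CPM in NSC, 109.3 and 89.7 in ENB, 64.2, 47.8 and 52.0 in LNB, and 57.3 and 8.10 in Neuron libraries, again with no step called. Of its 5 ligands and partners, 2 were called higher in NSC immunoprecipitates than in SVZ controls, beside 8.75% of all genes higher and 6.59% lower. Ribosome-bound Mdk, the growth factor midkine, was 98.6 to 118.2 CPM in NSC immunoprecipitates, against 11.3 to 16.2 CPM in SVZ controls, a log2 fold change of 2.99 ± 0.32 (adjusted p = 5.47e-05). It fell by 2.31 in ENB relative to NSC (adjusted p = 0.00231) and by 1.34 in LNB relative to ENB (adjusted p = 0.01). Ptn, which encodes pleiotrophin, was also higher in NSC immunoprecipitates than in SVZ controls, by 1.28 ± 0.30 (adjusted p = 0.0106). Of the 5 ligands and partners of Ptprz1 in total mRNA, 0 were called between ENB and NSC, 1 higher between LNB and ENB, and 1 higher and 1 lower between Neuron and LNB. Over all genes, 10.1%, 3.77% and 14.7% were called at these steps. The 1 called between LNB and ENB was Ptn, at 3.47 ± 0.82 (adjusted p = 0.0399) with overlapping groups, and -0.06 ± 0.42 without LNB replicates 1 and 3 (adjusted p = 1).

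Reln (ENSMUSG00000042453, chromosome 5, 21884454 to 22344705, minus strand) was close to 0 in total mRNA of both SVZ stages. NSC held 0, 2.34 and 1.78 CPM, ENB 1.80, 0 and 0, LNB 70.9, 14.8 and 77.1, and Neuron libraries 254, 249 and 206.2 CPM. The ENB values rest on 21, 0 and 0 reads. The log2 fold change of LNB against ENB was 6.50 ± 1.31 (adjusted p = 0.0261), and LNB against ENB did not overlap. Without LNB replicates 1 and 3 it was 4.54 ± 1.34 (adjusted p = 0.429), so the gap stayed above 4 on the log2 scale but was no longer past the threshold. The call was also lost without ENB replicate 2, ENB replicate 3, LNB replicate 1 or LNB replicate 3 alone, with adjusted p up to 0.0989, and without ENB replicate 1 both remaining ENB libraries are at 0 reads. The difference in log2(CPM + 1) was 3.24 and 6.23 within each second index. Neuron libraries were above every LNB library, with a log2 fold change of 2.03 ± 1.00 (adjusted p = 0.197), and 4.02 ± 1.66 without LNB replicates 1 and 3 (adjusted p = 0.189). The sum of 6 markers of mitral and other glutamatergic neurons was 66.8 to 180.2 CPM in LNB, with Tbx21 at 0, against 0.120 to 11.8 CPM in ENB, with Slc17a7 at 0, and 601.3 to 792.8 CPM in Neuron libraries, with 1 of 6 markers called higher in LNB against ENB and 2 of 6 in Neuron against LNB. In LNB replicates 1, 2 and 3 this sum was 180.2, 68.7 and 66.8 CPM, not in the order of Reln. Sums of astrocyte markers (6902, 1109 and 9494 CPM) and of ensheathing cell markers (649.9, 87.7 and 2645 CPM) ran in the order of Reln. So did the other sums named above as running in the order of Bcan. The part of any of these cell types in the Reln levels was not tested.

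In ribosome-bound mRNA Reln was abundant at every stage, at 121.3 and 47.7 CPM in NSC, 97.1 and 62.5 in ENB, 189.7, 189.7 and 171.7 in LNB and 243.6 and 218.6 in Neuron libraries. LNB was higher than ENB by 1.24 ± 0.31 (adjusted p = 0.013), a call lost without ENB replicate 2 (0.98, adjusted p = 0.144). Relative to library size, the controls without the HA tag held as much, with 239.4, 223.4 and 262.8 CPM in OB and 136.7, 109.7 and 138.2 CPM in SVZ. The OB controls were higher than the SVZ controls by 0.81 ± 0.26 (adjusted p = 0.0584). The change from ENB to LNB over that of their controls was 0.43 ± 0.39 (adjusted p = 0.686). In no immunoprecipitate was Reln called higher than in the control of its tissue.

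Some genes on the receiving side of the reelin pathway were called between ENB and NSC. Of 9 genes of the pathway in total mRNA, 2 were called higher and 1 lower in ENB against NSC (10.1% of all genes called), 1 higher in LNB against ENB (3.77%), and 3 lower in Neuron against LNB (14.7%), with medians of 0.67, 0.05 and -0.25 beside -0.01, 0.05 and -0.18 over all genes. Vldlr, a reelin receptor, was 61.5 to 83.4 CPM in ENB against 6.37 to 23.9 CPM in NSC, a log2 fold change of 2.60 ± 0.45 (adjusted p = 0.00586). Lrp8, the other receptor, rose by 1.23 ± 0.29 at this step (adjusted p = 0.0206), and it fell by 2.23 ± 0.30 in Neuron relative to LNB libraries (adjusted p = 0.000679), or by 2.39 ± 0.33 without LNB replicates 1 and 3 (adjusted p = 0.00244). Dab1, the adaptor that both receptors use, fell by 1.92 ± 0.25 in ENB relative to NSC (adjusted p = 0.0016) and rose by 1.71 ± 0.25 in LNB relative to ENB (adjusted p = 0.00698), or had a log2 fold change of 1.87 ± 0.30 without those LNB libraries (adjusted p = 0.089). In ribosome-bound mRNA Lrp8, Dab1 and the kinase Fyn rose in LNB relative to ENB, by 1.41, 1.06 and 1.16 on the log2 scale (adjusted p = 0.000654, 0.0121 and 0.0193). Over the change between their tissue controls, the same step was -0.18 ± 0.30 for Lrp8, 0.50 ± 0.34 for Dab1 and 0.48 ± 0.40 for Fyn, and 0 of the 9 genes was called (adjusted p = 0.847, 0.564 and 0.653 for these 3).

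**Figure D4:**
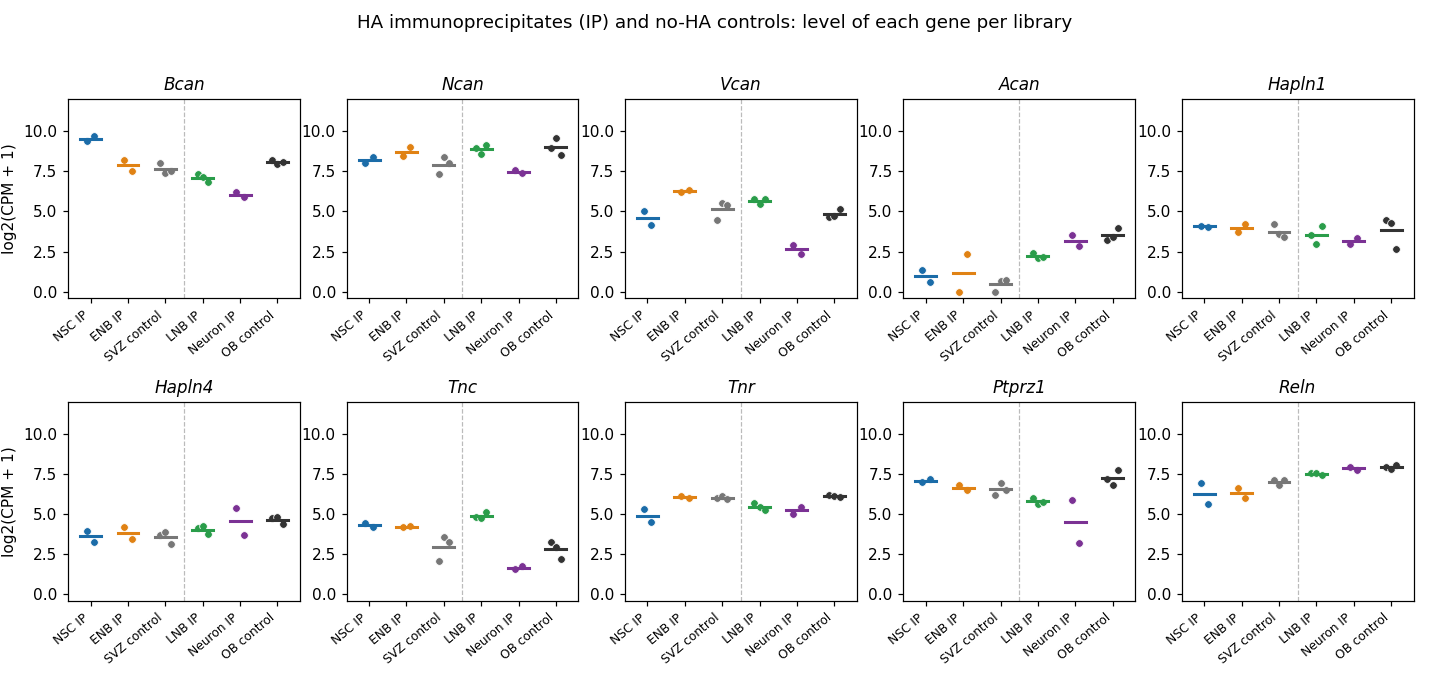
Level of each gene as log2(CPM + 1) in HA immunoprecipitates and in controls without the HA tag, with the SVZ on the left and the OB on the right of the dashed line. Points are libraries and bars are means. Bcan in NSC immunoprecipitates and Tnc in LNB immunoprecipitates lie above their controls, while Bcan, Ncan, Vcan, Tnc, Tnr and Ptprz1 of neurons lie below theirs.

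Each immunoprecipitate was also set against the control of its own tissue. Levels are scaled to the size of each library, so this compares the share of a gene in the RNA, not the amount of RNA that came down. In NSC 2 of 10 genes were called, 1 higher and 1 lower, beside 15.3% of all genes, 8.75% higher and 6.59% lower. Bcan was 666.8 and 818.8 CPM in NSC immunoprecipitates, against 257.3, 170.6 and 186.9 CPM in SVZ controls, a log2 fold change of 1.82 ± 0.25 (adjusted p = 0.000398), which held in all 11 alternatives. Within 1 second index the difference in log2(CPM + 1) was 1.52, beside 1.87 over all. Tnr was lower there, at 38.8 and 21.3 CPM against 62.8, 69.9 and 61.1 CPM, by -1.16 ± 0.26 (adjusted p = 0.00902), and not past the threshold without NSC replicate 2 (-0.80, adjusted p = 0.128). In ENB none of the 10 was called with edgeR or with DESeq2, beside 1.52% of all genes, 0.708% higher and 0.813% lower, and 4 had an unadjusted p under 0.05. The ribosome-bound values of ENB for these genes were therefore not told apart from the tissue control at this depth.

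In LNB immunoprecipitates 2 of 10 genes were called against the OB controls, 1 higher and 1 lower, beside 10.1% of all genes, 7% higher and 3.06% lower. Tnc was 27.7, 26.1 and 33.4 CPM in LNB, against 8.61, 6.87 and 3.51 CPM in OB controls, a log2 fold change of 2.29 ± 0.43 (adjusted p = 0.00956) that was 2.17 without LNB replicate 3 (adjusted p = 0.0595). Bcan was 157.3, 139.7 and 114.3 CPM against 294.5, 252 and 274.6 CPM, lower by -0.91 ± 0.23 (adjusted p = 0.0242). That call was lost without LNB replicate 2, LNB replicate 3 or OB control replicate 1, at -0.93 to -0.80 and adjusted p up to 0.126. Vcan had a log2 fold change of 0.91 ± 0.31 and Ptprz1 of -1.44 ± 0.45, neither past the threshold with edgeR (adjusted p = 0.0686 and 0.0529). DESeq2 called Ptprz1 at -1.61 (adjusted p = 0.00466) and Tnr at -0.74 (adjusted p = 0.02). With edgeR, Ptprz1 was called with another scaling (adjusted p = 0.0412) and with no filter on low counts (adjusted p = 8.79e-07). Vcan was called with the second index as a term, at 1.17 (adjusted p = 0.028).

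In Neuron immunoprecipitates 6 of 10 genes were called, all lower than in the OB controls, beside 27.4% of all genes, 11.6% higher and 15.7% lower. Vcan was 6.58 and 4.13 CPM in Neuron, against 24.5, 25.5 and 34.2 CPM in OB controls, a log2 fold change of -2.30 ± 0.38 (adjusted p = 0.000777). Bcan was 72.1 and 58.0 CPM against 294.5, 252 and 274.6 CPM, at -1.99 ± 0.27 (adjusted p = 0.000216). Ptprz1 was 57.3 and 8.10 CPM against 146, 113.7 and 213.9 CPM, at -2.19 ± 0.54 (adjusted p = 0.00829), and without Neuron replicate 1 or 2 all 3 of these genes stayed past the threshold. Ncan was called at -1.51 ± 0.35 (adjusted p = 0.00631; 0.0625 without Neuron replicate 2), Tnc at -1.47 ± 0.51 (adjusted p = 0.0415; up to 0.147 without Neuron replicate 1 or 2 or OB control replicate 1 or 2, 0.0634 with the replicate block, 0.104 with the second index as a term and 0.0819 with expected counts) and Tnr at -0.81 ± 0.26 (adjusted p = 0.0281; up to 0.185 without Neuron replicate 1 or OB control replicate 1, and 0.0729 with expected counts). All 8 astrocyte markers were called lower as well, with summed levels of 269.6 to 376.6 CPM in Neuron immunoprecipitates against 1078 to 2810 CPM in OB controls. Their part in these results was not tested. With 1 library of each kind on the same second index, the differences in log2(CPM + 1) kept their sign, at -2.22 for Vcan, -1.91 for Bcan, -1.88 for Ptprz1, -1.07 for Tnr, -0.95 for Ncan and -0.61 for Tnc. Reln was not called, at 243.6 and 218.6 CPM against 239.4, 223.4 and 262.8 CPM in OB controls.

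**Figure D5:**
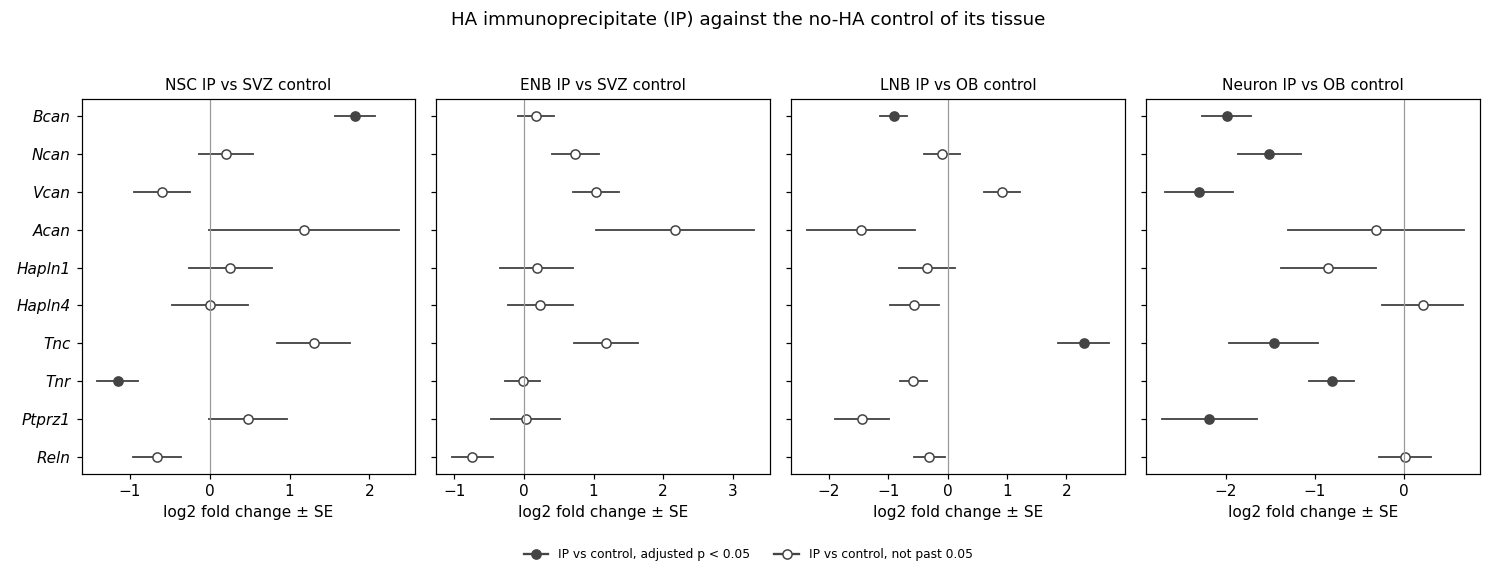
Log2 fold change with its standard error of each HA immunoprecipitate over the control without the HA tag from the same tissue, in 4 panels for NSC, ENB, LNB and Neuron. Filled points have an adjusted p under 0.05. Bcan runs from 1.82 in NSC to -1.99 in Neuron, and no point is filled in ENB.

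The tissues themselves differed for 2 of the 10 genes, Acan and Ncan, both higher in OB, beside 11.8% of all genes, 5.65% higher and 6.12% lower. Ncan was 486.5, 765.7 and 368.4 CPM in OB controls, against 158, 329.3 and 258.1 CPM in SVZ controls, a log2 fold change of 1.01 ± 0.30 (adjusted p = 0.0396). It was not past the threshold without SVZ replicate 1, SVZ replicate 3, OB replicate 1 or OB replicate 2, at 0.68 to 1.12 and adjusted p up to 0.2. Over these controls, the step of the ribosome-bound libraries between LNB and ENB gave a call for 0 of 10 genes with edgeR, beside 0.399% of all genes, 0.367% higher and 0.0315% lower, where 3 had an unadjusted p under 0.05 and DESeq2 called 1. Bcan had the value -1.08 ± 0.34 there (edgeR adjusted p = 0.216), and it was the gene that DESeq2 called, at -1.26 (adjusted p = 0.0145).

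Whether ribosome-bound and total mRNA moved apart was tested as the difference between the 2 log2 fold changes in 1 model. No gene of the 10 was called between ENB and NSC or between Neuron and LNB, beside 2.81% of all genes (1.49% higher, 1.32% lower) and 3.15% (1.46% higher, 1.69% lower), and 2 and 0 had an unadjusted p under 0.05. DESeq2 called 1 at the first of these steps and 0 at the second. Between LNB and ENB 2 were called, both lower in ribosome-bound mRNA, beside 6.15% of all genes, 1.89% higher and 4.26% lower. Bcan had the difference -3.57 ± 0.68 (adjusted p = 0.00676), from a ribosome-bound change of -0.77 and a total change of 2.68. Reln had -5.37 ± 1.3 (adjusted p = 0.0205), from 1.24 and 6.50. Without LNB total replicates 1 and 3 the difference was -1.23 ± 0.40 for Bcan (adjusted p = 0.202) and -3.33 ± 1.3 for Reln (adjusted p = 0.329). The Reln call was also lost without ENB total replicate 3, ENB ribosome-bound replicate 1 or any 1 of the 3 LNB ribosome-bound libraries, with adjusted p up to 0.0856. All 8 astrocyte markers were called lower in the same test, and the 2 kinds of library came from sorted cells and from whole tissue, so fraction and material cannot be told apart. The controls without the HA tag are not part of this test. In ENB and LNB immunoprecipitates, neither Reln (-0.74 and -0.31) nor Bcan (0.17 and -0.91) was called higher than in the control of its tissue. Bcan was called lower in LNB immunoprecipitates than in OB controls. Over the change between the tissue controls, edgeR called neither gene, at 0.43 ± 0.39 for Reln (adjusted p = 0.686) and -1.08 ± 0.34 for Bcan (adjusted p = 0.216). DESeq2 called that of Bcan, at -1.26 (adjusted p = 0.0145). The ribosome-bound change of Reln was thus not told apart from that in untagged tissue RNA, and for Bcan the 2 programs differed.

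Calls among the enzymes and partners of the matrix differed from list to list, beside 10.1%, 3.77% and 14.7% of all genes at the 3 steps of total mRNA. Of 19 chondroitin sulphate synthesis genes, total mRNA called 1 lower in ENB against NSC, 1 higher in LNB against ENB and 1 lower in Neuron against LNB. Csgalnact1, which starts the chondroitin chain, fell by 2.86 ± 0.75 in ENB relative to NSC (adjusted p = 0.0329) and rose by 4.21 ± 0.79 in LNB relative to ENB (adjusted p = 0.0197). Without LNB replicates 1 and 3 the step of Csgalnact1 between LNB and ENB was 1.07 ± 0.56 (adjusted p = 0.966). Among 8 tested hyaluronan genes none was called at any step of total mRNA, and Hapln2 alone was called in ribosome-bound mRNA, between LNB and ENB. Of 6 receptors for proteoglycans, Rtn4rl1 and Ptprf were called higher in LNB against ENB, by 7.58 and 1.28 (adjusted p = 0.026 and 0.0261). Ptprd was called higher in Neuron against LNB, by 2.69 (adjusted p = 0.00484). With LNB replicates 1 and 3 left out these values were 7.69, 1.10 and 3.19. That setting leaves 1 LNB library, so these values do not show that the 3 calls hold. Ptprs, which binds chondroitin sulphate chains, rose by 1.88 ± 0.23 in ENB relative to NSC (adjusted p = 0.00106). It fell in both later steps, by 0.95 and 1.52 (adjusted p = 0.0398 and 0.00126). Without LNB replicates 1 and 3 these later steps of Ptprs were -0.54 (adjusted p = 0.871) and -1.88 (adjusted p = 0.000875). Of 13 other proteoglycans tested, 2 were called higher and 6 lower in ENB against NSC, with a median log2 fold change of -2.29 beside -0.01 over all genes, among them the syndecan Sdc4 at -4.12 ± 0.78 (adjusted p = 0.00847) and the brain proteoglycan Cspg5 at -2.34 ± 0.50 (adjusted p = 0.0142). Of 10 matrix integrins tested, 1 was called lower, 1 higher and 1 lower at the 3 steps of total mRNA. Of 11 matrix proteases and inhibitors tested, 1 was lower in ENB against NSC, namely Timp3, an inhibitor held in the matrix, at -3.06 ± 0.68 (adjusted p = 0.0177). It also fell by 1.55 at that step in ribosome-bound mRNA (adjusted p = 0.00893). In LNB against ENB total mRNA, Timp4 and Timp3 were called higher, at 2.82 and 2.93 (adjusted p = 0.0272 and 0.0378). Their values were 0.47 and -0.07 without LNB replicates 1 and 3. In Neuron against LNB, Timp2 was called higher and Mmp14 lower, at 2.35 and -1.5 (adjusted p = 0.00478 and 0.0247). Without LNB replicates 1 and 3 the values of Timp2 and Mmp14 were 2.12 and -0.94.

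Lecticans and link proteins lie side by side in the genome, and each of the 4 pairs has 0 protein-coding genes between its members. Ncan and Hapln4 are 2222 bp apart on chromosome 8, Acan and Hapln3 1927 bp on chromosome 7, Bcan and Hapln2 18382 bp on chromosome 3 and Vcan and Hapln1 43476 bp on chromosome 13. Over the means of the 10 groups, as log2(CPM + 1), Pearson's r within the pairs was -0.56, -0.08, -0.13 and 0.13 in the same order. Among the 10 genes themselves the highest r were 0.88 for Ncan with Vcan, 0.83 for Hapln4 with Reln and 0.82 for Bcan with Ptprz1, and the lowest was -0.82 for Vcan with Hapln4. Groups share tissue and kind of library, and these values are descriptions. Of 20402 genes, the closest to Bcan over the 10 groups was Gpr37l1 (r = 0.992), followed by Elovl5 (0.991) and Arsk (0.978). For Vcan it was D130040H23Rik (0.976), then Gm26649 (0.973) and Trib2 (0.962), and for Reln Fam163b (0.985), Fndc5 (0.983) and Slc17a7 (0.979).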

How the data were processed

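The study deposited raw counts per gene, expected counts and TPM for 27 libraries, made by the authors with RSEM 1.2.21 and Bowtie2 2.2.6 on GRCm38, per the submitters' processing notes; the program behind the raw counts and whether strand was used are not given in the sources used here. Raw counts as deposited by the authors were tested with edgeR 4.0.16 (quasi-likelihood, TMM factors) in R 4.3.3, after edgeR's filter on low counts, in 3 fits: total mRNA, ribosome-bound mRNA with controls, and total with ribosome-bound mRNA for the difference between them. P-values were adjusted (Benjamini-Hochberg) over all genes tested, with a threshold of 0.05. CPM are counts scaled by TMM factors over all libraries; TPM as deposited by the authors were used only to order genes and for shares. The alternatives were DESeq2 1.42.0, another scaling, no filter, the expected counts deposited by the authors (rounded), a replicate block, the second sequencing index as a term and leaving out each library; a block by animal and leaving out LNB replicates 1 and 3 were chosen after seeing the data. By the labels, ENB and LNB ribosome-bound replicates 1 and 2 come from the same animals. In total mRNA, ENB replicate 2 shares animals with LNB replicate 3, and ENB replicate 3 with LNB replicate 2, so that their numbers cross. The scripts were tested on simulated counts. Symbols matched 44548 of 45195 identifiers, and 92 TPM entries without an identifier were not used. Some genes overlap the members, mainly long noncoding RNAs and pseudogenes, and reads may be shared with them. The 10 genes and all gene lists were chosen with earlier results of these data known. All 10 genes are named. Of each list, at most 4 called genes per comparison whose groups do not overlap are named, by smallest adjusted p. For proteoglycan receptors and matrix proteases, all calls at the total mRNA steps that use LNB are named too, and so is Ptn. Of genes like a member, the 3 with the highest r are named.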

Additional observations from a re-analysis of the deposited data

Results flagged for a closer look

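At the step from ENB to LNB, 2 genes moved differently in ribosome-bound and in total mRNA by the test of that difference. The ribosome-bound change of Bcan was lower than its total mRNA change by -3.57 on the log2 scale, and that of Reln by -5.37. Without LNB total mRNA replicates 1 and 3, which leaves 1 LNB total mRNA library, the difference was -1.23 for Bcan and -3.33 for Reln. Leaving out either of these replicates alone kept both calls. The Reln call was lost without ENB total mRNA replicate 3 or any single LNB ribosome-bound library, and with the second index as a term. The test leaves out the controls without the HA tag. Neither gene was called higher than its tissue control in ENB or LNB immunoprecipitates, and Bcan was called lower in those of LNB. No group has 4 or more libraries, so single libraries were not examined for outlying values by a fixed criterion.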

How the results depend on the processing

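Of 29 called values of the 10 genes, 9 kept direction and call in every alternative (10 to 19 each), 20 lost the call in at least 1, and 0 changed sign. Of the uncalled values, 44 changed sign in at least 1 alternative, the largest of them 3.63 in size. The number of the 10 genes called moved by more than 1.5 times as follows, with the cause not tested. DESeq2 called 6 (edgeR 3) in ENB against NSC, 4 (2) in LNB against ENB and 5 (2) in Neuron against LNB total mRNA, 3 (1) in LNB against ENB ribosome-bound mRNA and 1 (0) over control, 4 (2) in LNB immunoprecipitates against OB controls, and 1 (0) in ribosome-bound relative to total mRNA for ENB against NSC. For LNB against ENB ribosome-bound mRNA, no filter called 3, RLE factors 2 and the index term 2, and over control no filter called 1. The index term called 0 in LNB against ENB and 1 in its relative test, 2 in Neuron against LNB ribosome-bound mRNA and 1 in OB against SVZ controls, where expected counts also called 1; it could not be estimated for Neuron against LNB relative to total. Without LNB total replicates 1 and 3, a setting that leaves 1 LNB library, assumed to vary like the others, the counts were 0 in LNB against ENB and 0 in its relative test, 1 in Neuron against LNB and 1 in its relative test, where Bcan was -2.13 (adjusted p = 0.0143) against 0.10.

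Replicates 1 and 2 of ENB and LNB ribosome-bound mRNA come from the same animals by the labels; in total mRNA, ENB replicate 2 shares animals with LNB replicate 3, and ENB replicate 3 with LNB replicate 2, under different numbers. No other shared animals were found in the labels. The correlation of same-numbered deviations was -0.159 to 0.079 over 18 total mRNA pairs and -0.127 to 0.191 over 33 pairs of ribosome-bound and control libraries. This check compared same-numbered libraries only. Its ribosome-bound pairs include those known to share animals, so it cannot exclude other pairing. With the replicate block, LNB against ENB total mRNA called 0 of 10 genes; Bcan had 2.63 (adjusted p = 0.073) and Reln 6.54 (0.0627), and in ENB against NSC Bcan had -1.99 (0.0705) and Ncan 0.94 (0.0539). Tnc in Neuron immunoprecipitates against OB controls had -1.49 (0.0634). The block added calls for Tnr in ENB against NSC total mRNA, at 2.86 (0.0364), and for Reln in OB against SVZ controls, at 0.82 (0.0367). The block changed the count by over 1.5 times in 1 of 15 comparisons. Blocking by animal changed the count in 0 of 4 comparisons. Leaving out 1 library in turn, the counts called ran from 1 to 2, 0 to 3 and 2 to 3 at the 3 total mRNA steps, 1 to 3, 1 to 2 and 2 to 4 in ribosome-bound mRNA, 0 to 0 over control, 0 to 0, 1 to 4 and 0 to 0 in ribosome-bound relative to total mRNA, 1 to 3, 0 to 0, 0 to 3 and 4 to 6 in NSC, ENB, LNB and Neuron immunoprecipitates against controls, and 1 to 2 in OB against SVZ controls. Reads limit Acan, Hapln4 and Reln, with libraries at 0.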
